A study of Mus musculus with 16 samples.

Results

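The DEAD and DEAH box RNA helicases are the proteins named Ddx and Dhx, and 50 genes of the 20622 in the files were taken as members. Members were taken by gene symbol: of the 53 gene symbols that begin with Ddx or Dhx and a digit, *Ddx3y*, *Ddx6* and *Ddx58* were left out by the rule that defined the family here. That rule was set with earlier results of these data known. The members comprise 34 Ddx and 16 Dhx genes. In these cells 45 of them, 30 Ddx and 15 Dhx, had 10 or more counts in most of the 16 libraries, and the same 45 passed the count filter of each test. The 5 others stayed close to 0 and were not tested.

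The cells were KM cells, grown from the lung tumours of 1 male mouse at its clinical endpoint, which carried LSL-MYC/LSL-MYC at *Rosa26* and in which Cre, driven by the surfactant protein C promoter of an adenovirus (Ad5-SPC-CRE), had switched on the MYC transgene. All groups therefore share the oncogenic background of that mouse, and none was treated. KM_NTC cells carry Cas9 and a non-targeting guide, and KM_4A2cr cells carry Cas9 and a guide against *Eif4a2*, which encodes a translation initiation helicase. Per the methods, KM_4A2cr is a pool of 4 clones that lack eIF4A2 protein, and whether KM_NTC went through cloning is not given in the sources used here, so an effect of the guide and a difference between clones cannot be told apart. Ribosome-protected fragments (RPFs, the stretches of mRNA that translating ribosomes cover) and cytoplasmic total RNA were sequenced from the same lysates, in 4 replicates made on different days for each line. Library totals ran from 4512403 to 9621848 RPF counts and from 5350920 to 9312624 total RNA counts.

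DEAD and DEAH box proteins share a core that binds RNA and ATP, and they are named after the amino acids of one of its motifs. DEAD box proteins mostly open short duplexes or clamp single strands, whereas DEAH box proteins usually travel along a strand and pull RNA and proteins apart. Between them they serve nearly every step in the life of an RNA, from transcription, splicing and export to translation and decay, and the largest group in these cells acts in the nucleolus on precursors of the ribosome. eIF4A2 itself belongs to the DEAD box family by its sequence but not by its symbol, so it is the perturbed gene here and not a member.

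Across the family the values leaned slightly towards less ribosome occupancy in KM_4A2cr cells, and a single member passed the test. *Ddx27*, which acts in the maturation of large ribosomal subunit RNA, fell in RPFs by 0.39 on the log2 scale, whereas 44 of the 45 tested members did not pass in RPFs, and none of the 45 passed in total RNA or in translational efficiency (TE, the change in RPFs beyond that in total RNA). The median RPF log2 fold change of the family was -0.16, beside -0.01 for all genes tested, and 39 of 45 members had a value below 0. In total RNA the median was -0.09, beside 0.01 for all genes, with 32 members below 0. That total RNA median depended on single replicates, at -0.03 with 26 members below 0 without replicate 1, at -0.06 with 27 without replicate 2 and at -0.17 with 39 without replicate 4.

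The share of all genes called gives the scale for these counts. Calls were made at an adjusted p under 0.1 by edgeR's quasi-likelihood test. In RPFs 1 of 45 members was called lower and 0 higher, while 3.72% of all 10291 genes tested were called lower and 6.60% higher. In total RNA both counts were 0 of 45, against 1.78% of all 10880 genes called lower and 4.35% higher, and in TE again 0 of 45, against 1.00% lower and 1.87% higher of 9989. At an unadjusted p under 0.05 the members numbered 8 of 45 in RPFs, 3 in total RNA and 4 in TE, where 23.4%, 18.3% and 14.1% of all genes did. DESeq2 called 0 of 45 in RPFs, against 2.79% of all genes lower and 6.52% higher, and 0 of 45 in total RNA, against 1.39% and 4.03%. A log2 fold change below 0 was found for 51.1% of all genes in RPFs, 48.4% in total RNA and 52.6% in TE, where 32 of the members lay below 0.

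The sizes were bounded more closely than the counts alone show. In the fits reported, none of the 45 members had an RPF log2 fold change of more than 0.5 in either direction. In total RNA 44 of 45 stayed within that size. Of all genes tested, 8779 of 10291 in RPFs and 9748 of 10880 in total RNA did so too. Other settings put members beyond 0.5 in RPFs, such as *Ddx59* at -0.60 without replicate 4 and *Ddx31* at -0.61 scaled by library size only. The 95% intervals of all 45 members lay within a change of 1 on the log2 scale in RPFs, total RNA and TE alike. Those of 8813 of all genes did in RPFs, 9817 in total RNA and 9337 of 9989 in TE. Within 1.5-fold in either direction lay the intervals of 27 members in RPFs, 39 in total RNA and 37 in TE, so a modest change of the others is not excluded by these data.

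**Figure D1:**
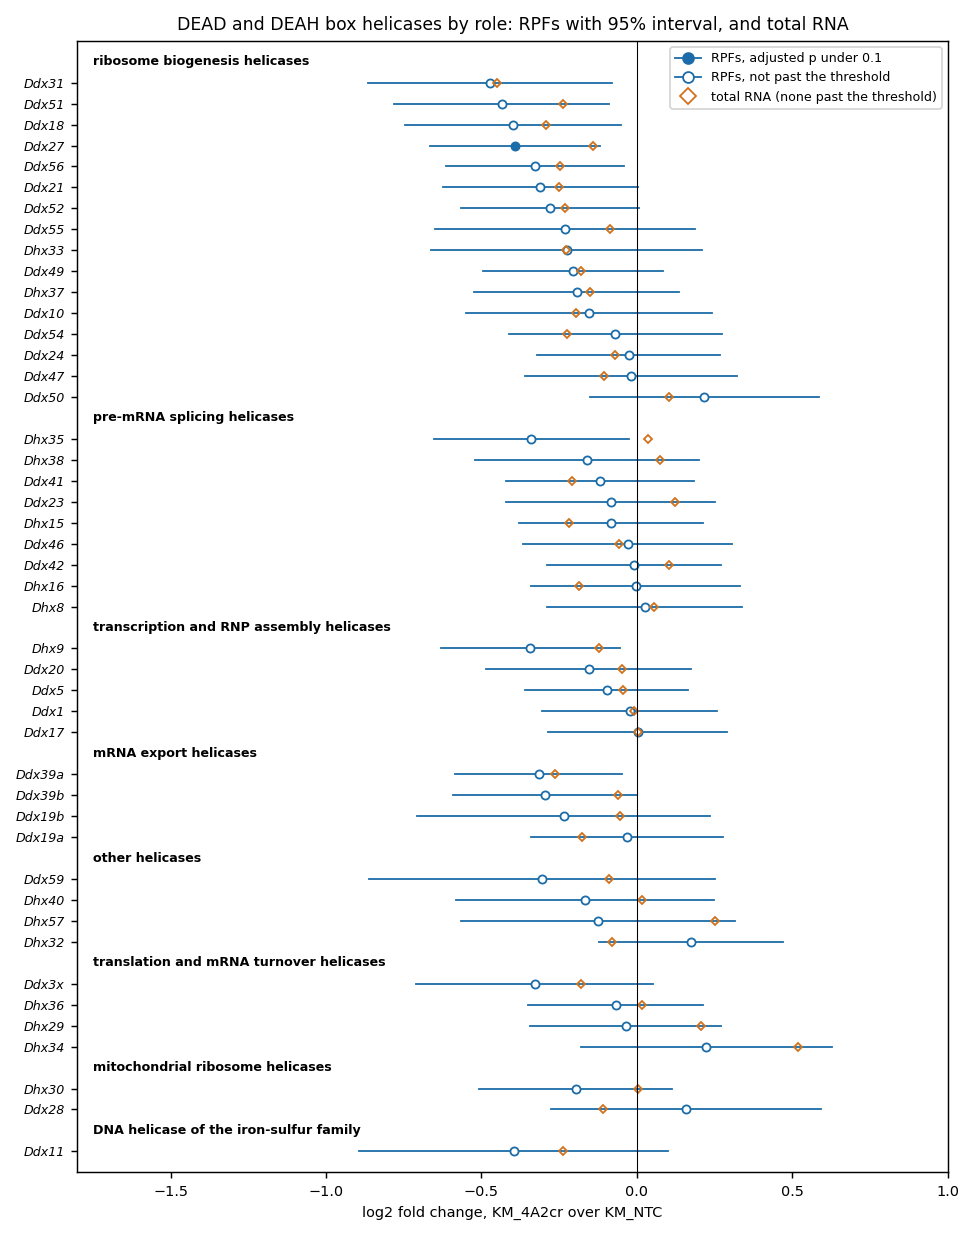
Log2 fold change of each tested member, KM_4A2cr over KM_NTC, grouped by role. Blue circles are RPF values from 4 pairs of libraries with their 95% interval (filled where the adjusted p is under 0.1, open otherwise) and orange diamonds are total RNA values. Of 45 members 39 lie below 0 in RPFs, *Ddx27* is the one filled circle, and *Ddx50* is the one ribosome biogenesis helicase above 0.

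The targeted gene was read first, since it checks the labels. *Eif4a2* (ENSMUSG00000022884.17) stood at 97.7, 122, 99.9 and 389 RPF CPM (counts scaled to a common total after TMM correction of the library sizes) in KM_NTC replicates 1 to 4 and at 51.0, 88.4, 74.8 and 346 in KM_4A2cr. Each KM_4A2cr library was below its partner, yet replicate 4 of both lines was far above the others, and the 2 groups overlapped. The RPF log2 fold change was -0.49 (SE 0.15, where SE is the standard error of the fit, edgeR adjusted p = 0.0941, or 0.998 without the replicate block), and that of total RNA was -0.18 (edgeR adjusted p = 0.504). The share of all genes called without that block is not given here. The *Eif4a2* counts do not measure the protein, and why the RPFs of the targeted gene stayed at a ratio of 0.71 was not tested. The direction goes with the labels, but the overlap of the groups leaves that check inconclusive. Markers of epithelium (*Epcam*, *Cdh1* and 4 keratins) summed to between 4174 and 5918 TPM in the 8 total RNA libraries. Of 8 alveolar type II markers 6 stayed under 1 TPM, and the defining genes *Sftpc* and *Sftpb* were listed at 0 TPM in all 8 libraries. That list summed to between 29.1 and 35.5 TPM in KM_NTC and between 37.5 and 48.9 in KM_4A2cr, nearly all of it *Abca3*, and its part in the results was not tested. The lists of fibroblast and endothelial markers summed to at most 3.03 and 1.94 TPM, and that of immune markers to between 33.2 and 220 TPM, with *Cd68* as its one gene above 1 TPM.

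Replicate 4 stands apart for the helicases too. The differences within pair 4 had a standard deviation over the 45 members of 0.49 in RPFs and 0.44 in total RNA, against 0.21 to 0.28 and 0.17 to 0.28 in the other pairs. Over all genes the spread of pair 4 was also the widest, at 0.67 in RPFs and 0.59 in total RNA. In total RNA 36, 40 and 28 of 45 members lay below 0 in pairs 1, 2 and 3, but 16 in pair 4. In RPFs those numbers were 40, 34, 27 and 30.

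The spread between replicates was larger than the difference between lines for most of the family. The difference of the line means was smaller than the SD of the 4 KM_NTC libraries, both in log2 CPM, for 38 of 45 members in RPFs and for 39 in total RNA. That SD includes shifts between replicates that the tests take out with their replicate term, so it is not the error of the tests. No member had groups that did not overlap, in RPFs or in total RNA, where 2.13% and 1.97% of all genes did. Within the replicate pairs, 14 of 45 members were lower in KM_4A2cr in all 4 RPF pairs, against 16.0% of all genes. In total RNA 7 of 45 were (13.0% of all genes), and in TE 4 of 45 (11.3% of all genes). No member was higher in all 4 RPF pairs.

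**Figure D2:**
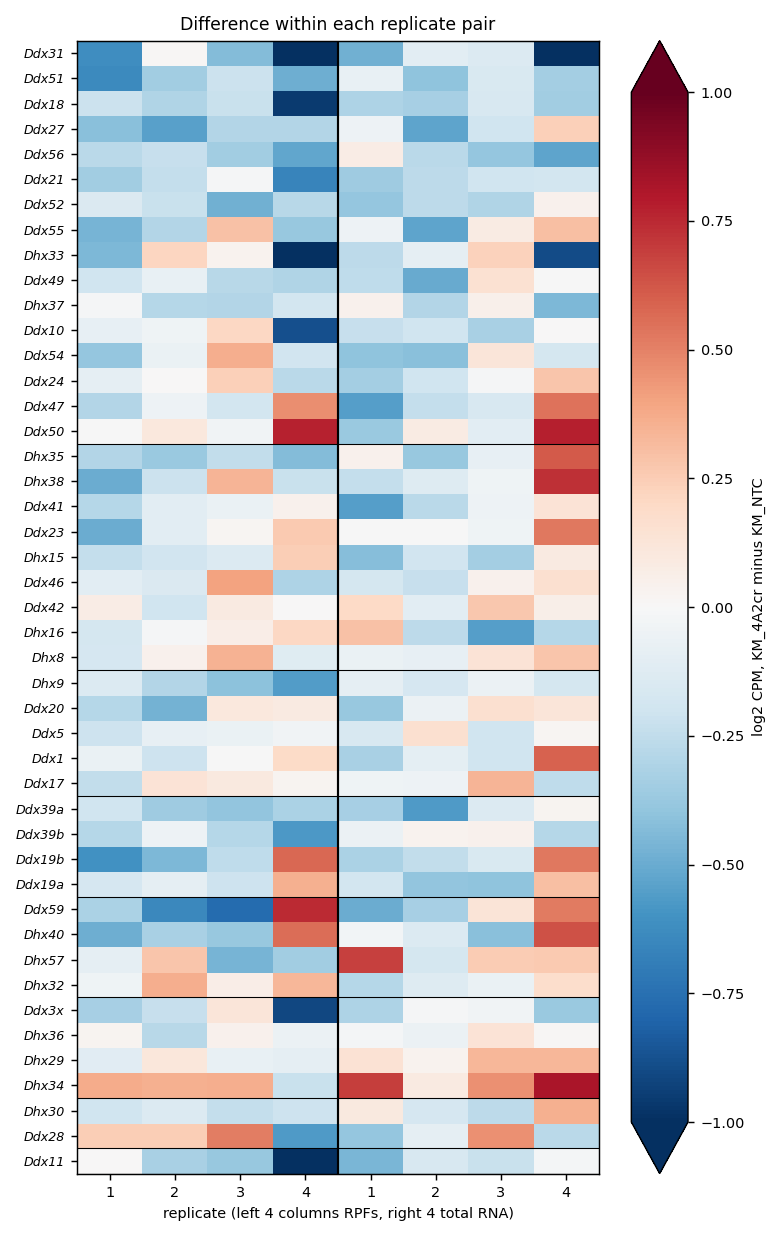
Difference in log2 CPM, KM_4A2cr minus KM_NTC, within each replicate pair for the 45 tested members, in the order of the plot of fold changes by role. The left 4 columns are RPFs and the right 4 total RNA, blue is lower in KM_4A2cr, red higher, and colours saturate at 1. Pair 4 holds the strongest colours, and in total RNA 16 of its 45 members are below 0.

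The helicases of ribosome biogenesis were the largest group, with 16 tested members. They unwind or release small nucleolar RNAs and rearrange precursor ribosomal RNA as both subunits are built. In RPFs 15 of 16 had a log2 fold change below 0 and 1 was called, with a median of -0.23. In total RNA 15 of 16 were below 0 and none was called, with a median of -0.21, so TE stayed near 0 with a median of -0.04 and 10 of 16 below 0. The member above 0 was *Ddx50* in both kinds of library.

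*Ddx27* (ENSMUSG00000017999.17, chromosome 2) had 86.9, 102, 70.0 and 63.4 RPF CPM in KM_NTC replicates 1 to 4. In KM_4A2cr it had 64.85, 69.5, 57.0 and 51.7 CPM. Every KM_4A2cr library was below its partner, by 0.42, 0.55, 0.30 and 0.29 on the log2 scale, although the groups overlapped. The means were 80.5 ± 17.2 and 60.8 ± 7.95 CPM (SD, n = 4), a ratio of 0.762, and the log2 fold change was -0.39 (SE 0.12, 95% interval -0.67 to -0.12, edgeR adjusted p = 0.0982). In total RNA it stood at 60.7 ± 9.64 and 54.9 ± 5.50 CPM (SD, n = 4), with a log2 fold change of -0.14 (edgeR adjusted p = 0.651), lower in 3 of 4 pairs. The TE value was -0.23 (SE 0.11, edgeR adjusted p = 0.343).

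The call for *Ddx27* sits at the edge of the threshold. It passed under 5 of 12 alternative settings, with adjusted p-values by edgeR or DESeq2 from 0.0104 to 0.998, and its log2 fold change was between -0.52 and -0.34 in all of them. The fit without the replicate block gave -0.41 with an unadjusted p of 0.0999 and an adjusted p of 0.998 by edgeR. Leaving out replicate 1, 2 or 3 took the call away, with adjusted p-values of 0.258, 0.472 and 0.345 by edgeR. Leaving out replicate 4 gave -0.42 with an adjusted p of 0.0104 by edgeR. Among the fits that lost the call, the share of all genes called is given here for DESeq2 only. The losses can therefore not be read as particular to *Ddx27*.

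*Ddx51*, which also acts on large subunit RNA, and *Ddx31*, a nucleolar helicase, came next by RPF p in this group. *Ddx51* had 22.8, 12.6, 11.1 and 8.81 RPF CPM in KM_NTC and 14.6, 9.84, 9.54 and 6.19 in KM_4A2cr, lower in all 4 pairs, with a log2 fold change of -0.44 (SE 0.15, edgeR adjusted p = 0.133). *Ddx31* had 31.5, 22.2, 25.5 and 16.6 CPM and then 20.4, 22.4, 18.8 and 8.08, where replicate 2 showed no drop and replicate 4 the largest one. Its log2 fold change of -0.47 (SE 0.17, edgeR adjusted p = 0.148) was the lowest of the family in RPFs, and its total RNA value of -0.45 was the lowest there.

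*Ddx21*, which links RNA polymerase I and II transcription to rRNA processing, and its neighbour and close relative *Ddx50* lie next to each other on chromosome 10. *Ddx21* had 204, 203, 146 and 111 RPF CPM in KM_NTC and 161, 171, 145 and 69.7 in KM_4A2cr, a log2 fold change of -0.31 (edgeR adjusted p = 0.217). *Ddx50* had 20.6, 23.9, 26.7 and 48.3 CPM and then 20.5, 25.7, 26.1 and 82.7. The first 3 pairs of *Ddx50* were level, and its log2 fold change of 0.22 (edgeR adjusted p = 0.465) came with a difference of 0.77 in pair 4.

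That pair of relatives also differed in how many footprints they had for their mRNA. Their mean transcript levels were alike in KM_NTC cells, with a log2 ratio of *Ddx21* to *Ddx50* in TPM (a level per transcript length) of 0.04 ± 0.69 (SD, n = 4). Single libraries differed, at 91.1, 100, 72.5 and 43.9 TPM for *Ddx21* and 51.7, 88.7, 71.7 and 80.1 for *Ddx50*. The log2 ratio of RPF CPM to total RNA CPM was -0.25 ± 0.12 for *Ddx21* and -1.78 ± 0.26 for *Ddx50* (SD, n = 4). In KM_4A2cr these log2 ratios were -0.32 ± 0.33 and -1.67 ± 0.31. The ratio within a gene also moves with the share of its transcript that is coding, a share that was not measured here. Over the 45 members in KM_NTC cells the same log2 ratio ran from -2.67 for *Ddx19b* to 1.10 for *Ddx39a*. RPFs were counted on the most abundant transcript of each gene, but total RNA was summed over all isoforms. In KM_NTC that transcript held 54.6% of the TPM of *Ddx19b* and 55.0% of that of *Ddx39a*, nearly the same share at both extremes. The part that this way of counting has in the 2 ratios was not tested.

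*Ddx47*, a small subunit processome helicase and among the 8 members of highest TPM, was near 0 in RPFs, with pair 4 against the other pairs. It had 109, 110, 107 and 117 RPF CPM in KM_NTC and 89.0, 106, 93.6 and 162 in KM_4A2cr. In RPFs 3 pairs were lower and pair 4 higher by 0.46, with a log2 fold change of -0.02 (95% interval -0.36 to 0.32). In total RNA 3 pairs were also lower and pair 4 higher by 0.54, with a log2 fold change of -0.10 (edgeR adjusted p = 0.797). Without replicate 4 that total RNA value was -0.33 (edgeR adjusted p = 0.0299).

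**Figure D3:**
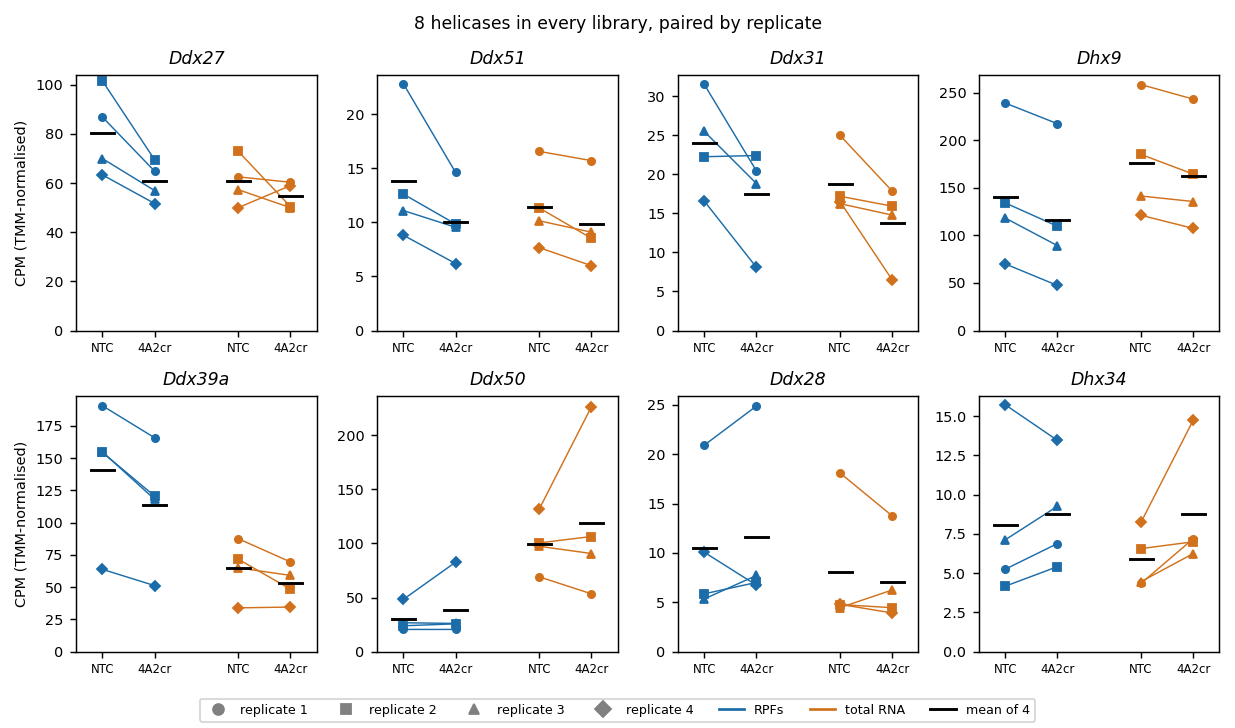
TMM-normalised CPM of 8 members in every library, with RPFs in blue and total RNA in orange, lines joining the 2 lines of cells within a replicate, and black bars for the mean of 4. Axes start at 0. All 4 lines slope down for *Ddx27*, *Ddx51*, *Dhx9* and *Ddx39a* in RPFs, replicate 4 is the highest for *Ddx50*, and replicate 1 is the highest for *Ddx28*.

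Among the 9 helicases of pre-mRNA splicing, 8 were below 0 in RPFs with a median of -0.08, and none was called in any comparison. In total RNA 4 of 9 were below 0. *Dhx35*, a DEAH helicase found with the catalytic spliceosome, had 12.5, 19.5, 12.2 and 17.2 RPF CPM in KM_NTC and 10.1, 15.0, 10.2 and 12.7 in KM_4A2cr. It was lower in all 4 pairs, with a log2 fold change of -0.34 (SE 0.14, edgeR adjusted p = 0.18), whereas its total RNA value was 0.04. *Dhx38*, which drives a step of catalytic remodelling, and *Ddx41*, whose germline mutations are known in myeloid leukaemia, had RPF values of -0.16 and -0.12 (edgeR adjusted p = 0.585 and 0.635). *Dhx15*, which takes spent spliceosomes apart, was the most abundant of the group and had a value of -0.08 in RPFs and -0.22 in total RNA (edgeR adjusted p = 0.738 and 0.429).

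The 5 helicases of transcription and RNP assembly had a median RPF value of -0.10, with 4 below 0. *Dhx9*, which unwinds double-stranded RNA and structured hybrids in the nucleus, had 239, 134, 118 and 70.1 RPF CPM in KM_NTC and 217, 110, 89.2 and 47.4 in KM_4A2cr. All 4 pairs were lower while the replicates differed far more than the lines, and the log2 fold change was -0.34 (SE 0.13, edgeR adjusted p = 0.151). In TE its value was -0.21 (edgeR adjusted p = 0.343). *Ddx20*, the helicase of the SMN complex, had an RPF value of -0.16 (edgeR adjusted p = 0.562).

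*Ddx5* and *Ddx17*, which are close relatives and transcriptional coregulators, were near 0. *Ddx5* had 544, 871, 607 and 665 RPF CPM in KM_NTC and 471, 825, 580 and 648 in KM_4A2cr, all 4 pairs slightly lower, with a log2 fold change of -0.10 (95% interval -0.36 to 0.17). *Ddx17* had values of 0.00 in both RPFs and total RNA, with 95% intervals of -0.29 to 0.29 and -0.29 to 0.30. The log2 ratio of *Ddx5* to *Ddx17* in TPM was 1.87 ± 0.63 in KM_NTC and 1.81 ± 0.79 in KM_4A2cr (SD, n = 4), a shift well inside the spread.

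The 4 mRNA export helicases comprise a pair that joins the export machinery in the nucleus and a pair that releases mRNA at the nuclear pore. All 4 were below 0 in RPFs and in total RNA, and none was called. *Ddx39a* had 191, 154, 155 and 63.8 RPF CPM in KM_NTC and 166, 121, 118 and 51.2 in KM_4A2cr, lower in all 4 pairs, with a log2 fold change of -0.32 (SE 0.12, edgeR adjusted p = 0.153). *Ddx39b* had an RPF value of -0.30 (edgeR adjusted p = 0.214), lower in all 4 pairs, beside -0.06 in total RNA and -0.23 in TE (edgeR adjusted p = 0.293). *Ddx39a* and *Ddx39b* code for nearly identical proteins, and whether short fragments were exchanged between them was not tested.

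*Ddx19a* and *Ddx19b* sit side by side on chromosome 8 and are also near copies. *Ddx19a* had 88.3, 95.9, 86.2 and 70.1 RPF CPM in KM_NTC, beside 8.06, 10.8, 11.1 and 7.34 for *Ddx19b*. In TPM the log2 ratio of *Ddx19a* to *Ddx19b* was 1.02 ± 0.09, and in RPF CPM it was 3.20 ± 0.21 (SD, n = 4). How the 2 read aligners assigned fragments that match both copies was not tested, so neither level is certain. Their RPF log2 fold changes were -0.03 and -0.24 (edgeR adjusted p = 0.91 and 0.536), with pair 4 above 0 for both and the other pairs below.

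The 4 helicases of translation and mRNA turnover went in different directions and none was called. *Ddx3x*, which helps ribosomes start on structured mRNAs, had 306, 280, 191 and 125 RPF CPM in KM_NTC and 243, 239, 208 and 66.2 in KM_4A2cr, with a log2 fold change of -0.33 (SE 0.17, edgeR adjusted p = 0.279). Replicate 4 was the lowest in both lines, and pair 3 went the other way. *Dhx34*, a factor of nonsense-mediated decay, had the highest total RNA value of the family. It stood at 4.35, 6.57, 4.46 and 8.24 total RNA CPM in KM_NTC and at 7.20, 7.00, 6.25 and 14.75 in KM_4A2cr, higher in all 4 pairs, with a log2 fold change of 0.52 (SE 0.19, edgeR adjusted p = 0.186). Under the alternative settings that total RNA value ran from 0.13 to 0.69, and the gene had 376 total RNA counts over both lines. The RPF value of *Dhx34* was 0.22 (edgeR adjusted p = 0.491), with 3 pairs higher. *Dhx36*, the resolvase of G-quadruplexes, had -0.07 in RPFs and 0.02 in total RNA, with 95% intervals of -0.35 to 0.21 and -0.25 to 0.28.

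Of the 2 mitochondrial ribosome helicases, *Dhx30* had an RPF value of -0.20 (edgeR adjusted p = 0.426), lower in all 4 pairs, and 0.00 in total RNA. *Ddx28* had 20.9, 5.86, 5.34 and 10.1 RPF CPM in KM_NTC and 24.9, 7.01, 7.72 and 6.73 in KM_4A2cr. Replicate 1 was the highest in both lines, and in total RNA as well, at 18.1 and 13.7 CPM against 3.92 to 6.25 in the other 6 libraries. The difference between the lines was 0.16 in RPFs (SE 0.19, edgeR adjusted p = 0.665) and -0.11 in total RNA.

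The remaining tested members were 4 helicases of other or little known function and *Ddx11*, a DNA helicase with an iron-sulfur cluster. *Dhx32* was the member with the smallest TE p: it had 45.9, 40.1, 51.4 and 31.3 RPF CPM in KM_NTC and 44.4, 51.5, 53.7 and 39.3 in KM_4A2cr, and a TE value of 0.27 (SE 0.11, edgeR adjusted p = 0.235), higher in all 4 pairs. *Ddx59* and *Dhx40* were lower in RPF pairs 1 to 3, by 0.32 to 0.77 and by 0.32 to 0.49, and higher in pair 4, by 0.75 and 0.56. *Ddx11* had 2.15 RPF CPM in KM_4A2cr replicate 4, beside 6.03 to 9.72 in the 3 other libraries of that line, and a log2 fold change of -0.40 (SE 0.22, edgeR adjusted p = 0.315).

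Without replicate 4 the same fit called more helicases. In RPFs 9 of 45 were then called, all lower (14.3% of all genes were called lower in that fit), and in total RNA 10 of 45, all lower (12.0% of all genes). The members called in RPFs were *Ddx27*, *Dhx40*, *Ddx59*, *Ddx39a*, *Ddx51*, *Dhx9*, *Ddx19b*, *Ddx56* and *Ddx31*, with log2 fold changes from -0.60 to -0.27. In total RNA they were *Dhx15*, *Ddx39a*, *Ddx52*, *Ddx19a*, *Ddx47*, *Ddx21*, *Ddx18*, *Ddx27*, *Ddx10* and *Ddx19b*, with values from -0.36 to -0.25. *Ddx27*, *Ddx39a* and *Ddx19b* were in both, 33.3% of the RPF list and 30% of the total RNA list. In TE *Dhx32* was called higher, at 0.31 (5.04% of all genes were called higher). These fits share 6 of the 8 libraries of each kind with the tests above and are not a second experiment.

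The 3 members on chromosome 2 were all in the upper part of the RPF ranking. They are *Ddx27*, *Ddx31* and *Dhx35*, with RPF values of -0.39, -0.47 and -0.34. Genes of chromosome 2 as a whole were lower in KM_4A2cr: the 838 tested in RPFs had a median log2 fold change of -0.21, and 10.3% of them were called lower, against 0.00 and 3.14% for the other 9453 genes. In total RNA the medians were -0.17 and 0.02. The 20 nearest tested genes on each side of *Ddx31*, *Dhx35* and *Ddx27*, in the gene order of RefSeq, had RPF medians of -0.23, -0.15 and -0.08. Around the 42 members on other chromosomes those medians ran from -0.12 to 0.18. The part that the chromosome has in the values of these 3 genes was not tested.

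Genes that work beside the family were read from lists of other helicases and of cofactors. Of 19 tested RNA helicases with other names, 4 were called lower in RPFs (21.1%, beside 3.72% of all genes) and none higher, with a median of -0.26. Among them were *Eif4a2* itself, *Aqr*, of the spliceosome, and *Snrnp200*, which unwinds the U4 and U6 snRNAs. *Aqr* and *Snrnp200* had RPF values of -0.43 and -0.42 (edgeR adjusted p = 0.083 and 0.0958), and both lie on chromosome 2. *Eif4a1* and *Eif4a3*, the relatives of the targeted gene, had RPF values of -0.26 and -0.25 (edgeR adjusted p = 0.23 and 0.308). Of 20 helicase cofactors 1 was called in RPFs and 1 in total RNA, or 5.00% each, beside 3.72% and 1.78% of all genes called lower. *Gemin4*, a partner of *Ddx20* in the SMN complex, fell in RPFs by 0.47 (edgeR adjusted p = 0.0804), and *Rbm17*, a splicing factor that is also on chromosome 2, fell in total RNA by 0.41 (edgeR adjusted p = 0.0938). None of these calls held without the replicate block (edgeR adjusted p = 0.998 in RPFs and 0.999 in total RNA) or with replicate 1, 2 or 3 left out (edgeR adjusted p from 0.163 to 0.467). The share of all genes called in those fits is not given here. No gene of either list was called in TE.

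Transcript levels in cytoplasmic RNA spanned 71.4-fold over the tested members, from 187 TPM for *Ddx5* to 2.63 TPM for *Dhx37*, with a median of 18.5. After *Ddx5* came *Dhx15* at 111, *Ddx3x* at 111, *Ddx47* at 82.6, *Ddx50* at 72.8, *Ddx21* at 67.6, *Dhx9* at 66.2 and *Ddx39a* at 65.5 TPM, all as means of the 2 lines. In each of the 44 pairs of adjacent members the 4 KM_NTC values overlapped. Within libraries, *Ddx5* was above *Dhx15* in all 8, whereas the order of the other 43 pairs differed between libraries. *Ddx5* alone ranged from 159 to 271 TPM in KM_NTC and from 119.5 to 282.5 in KM_4A2cr.

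**Figure D4:**
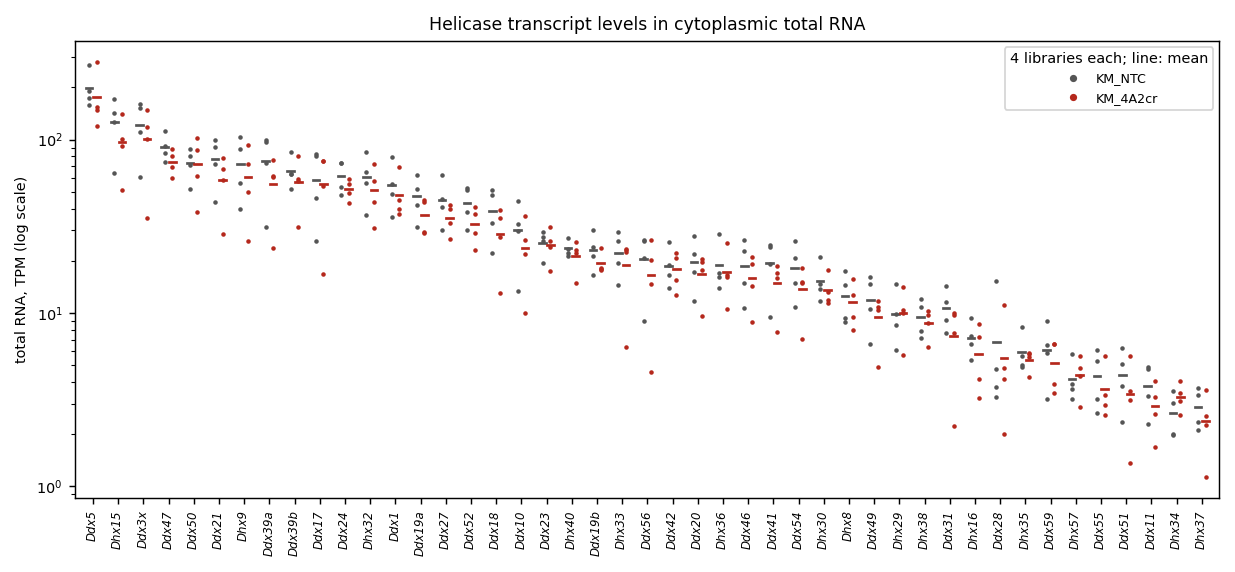
Total RNA level in TPM, on a log axis, of the 45 tested members in order of their mean. Each point is 1 library (grey KM_NTC, red KM_4A2cr, 4 of each) and each short line the mean of 4. The ranges of adjacent members overlap, and the 2 lines overlap for every member.

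The 5 members left untested belong to the germ line and to antiviral sensing. *Ddx4*, the Vasa helicase of germ cells, had 6 RPF and 15 total RNA counts over 8 libraries of each kind, *Ddx25* had 1 and 0, and *Ddx43* had 0 total RNA counts and no RPF entry. *Dhx58*, a sensor of viral RNA, had 28 and 32 counts, and *Ddx60*, an interferon-induced relative, had 1 and 3. At this depth a difference in any of the 5 was not detectable.

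Since the cells carry a MYC transgene, the promoters were searched for CACGTG, the canonical E-box that MYC and other factors can bind, which reads the same on both strands. The window was 250 bases before to 50 after each RefSeq start (GRCm38.p6), and 41 of the 45 tested members were matched. It was found in 5 of 41 members (12.2%) and in 8.09% of all 27025 genes in the table, and in 1 of the 16 ribosome biogenesis helicases. The median share of G and C in the window was 59.7% for the members and 52.8% for all genes. Its part in the matches was not tested. Among the 5 members, *Dhx35* held 2 matches and the others 1 each. All 6 are shown because they are the whole set, each as 30 bases read 5′ to 3′ on the strand of the gene with the motif in capitals.
*Ddx5*, chr11:106788920-106788949, minus strand: cctgggtccgatCACGTGatgaggccaagc
*Ddx42*, chr11:106230506-106230535, plus strand: tcccccatgatgCACGTGggatttttgatc
*Dhx33*, chr11:71004450-71004479, minus strand: ccagcacgcctgCACGTGgcgagaaagggg
*Dhx35*, chr2:158794655-158794684, plus strand: gccgcgcggcatCACGTGggccaaggagag
*Dhx35*, chr2:158794705-158794734, plus strand: gcgagctgcgatCACGTGatccatagtggg
*Dhx40*, chr11:86807763-86807792, minus strand: gggtggcggaggCACGTGgcgatgggcggg

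The 5 genes had RPF log2 fold changes of -0.10, -0.01, -0.23, -0.34 and -0.17 in that order, none of them called. The called member, *Ddx27*, had no match in its window. A match is a run of letters in the reference and not a measured site.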

How the data were processed

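The authors deposited RPF counts per transcript, made with cutadapt 1.18, UMI-tools 1.0.1, BBmap and SAMtools 1.9, of fragments on the most abundant protein-coding transcript of each gene (GENCODE vM27), leaving out both ends of the coding sequence. For total RNA they deposited RSEM expected counts and TPM per isoform after Bowtie2 2.3.5.1 (RSEM 1.3.3). The gene of each RPF transcript was looked up in the isoform tables, expected counts were summed per gene and rounded, and chromosomes and promoters were taken from RefSeq (GRCm38.p6), another build than that of the files.

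Tests used edgeR 4.0.16 in R 4.3.3 (filterByExpr, TMM, glmQLFit with legacy dispersion, glmQLFTest) over all genes, with line and replicate as terms and Benjamini-Hochberg adjustment at 0.1. TE was the interaction of line and kind of library in 1 model of 16 libraries with a term for each lysate. CPM values are TMM-normalised within a kind of library (log2 CPM with a prior count of 2), so a change of all footprints in a cell would not show. The scripts were tested on simulated data. Replicates were made on different days per the design text of the series, while the sample titles give replicate numbers only. Deviations of same-numbered libraries from their line means correlated across genes at 0.575 to 0.782 in RPFs and 0.611 to 0.756 in total RNA. The p-values cover the spread between replicates of 1 pair of lines.

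Members, role groups and gene lists were chosen with earlier results of these data known. Named with values are the members past the threshold, the 3 with the smallest RPF p in each role group, the 8 of highest TPM, 4 pairs of relatives, members on chromosome 2 and untested members. Alternatives were no replicate block, DESeq2 1.42.0, 3 scalings, 2 count filters, a threshold of 0.05, each replicate left out, the RPF isoform only for total RNA, and, chosen after seeing the data, the fit without the legacy setting. Part of the genotype and 1 gene of the lists are not reported here.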

Additional observations from a re-analysis of the deposited data

Results flagged for a closer look

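Of 112 groups of 4 libraries examined (RPFs and total RNA of 27 named members and *Eif4a2* in each line), 11 had a library so far from the rest that its gap to the next, divided by the range of the group, passed Dixon's 95% critical value. Chance flags about 1 in 20 groups that are independent. These groups share libraries and lysates, so that rate cannot say whether 11 is an excess. Of the 11 flags, 6 were replicate 4.

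In replicate 4, *Eif4a2* was the highest library in RPFs of KM_NTC at 389 CPM against 122 for the next (ratio 0.916), in RPFs of KM_4A2cr at 346 against 88.4 (0.873) and in total RNA of KM_NTC at 524 against 254 (0.891). *Ddx50* was highest there in RPFs of KM_4A2cr at 82.7 against 26.1 CPM (0.911) and *Dhx34* in total RNA of KM_4A2cr at 14.75 against 7.20 (0.889), while *Ddx41* was lowest in RPFs of KM_NTC at 11.75 against 21.6 (0.924).

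In replicate 1, *Ddx28* was highest in RPFs of KM_4A2cr at 24.9 against 7.72 CPM (0.946) and in total RNA of KM_NTC at 18.1 against 4.79 (0.976), and *Ddx31* in total RNA of KM_NTC at 24.96 against 17.2 (0.891). In replicate 2 of KM_NTC total RNA, *Ddx39b* was highest at 74.65 against 66.3 CPM (0.96) and *Dhx36* at 74.3 against 53.1 (0.899).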

How the results depend on the processing

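The single RPF call, *Ddx27*, became 0 calls with no replicate block, with DESeq2, with RLE scaling, with no count filter and at a threshold of 0.05, and it stayed 1 call with upper-quartile scaling, with 10 counts required in 5 of 8 libraries and without the legacy setting. Of these settings, the share of all genes called is given here for DESeq2 only. Scaling by library size only gave 12 RPF calls and 4 in total RNA, all lower. There the median of all genes moved to -0.14 in RPFs and -0.15 in total RNA. The share of all genes called under that scaling is not given here, so these counts cannot be read as a result about the family. Under it the medians of the members were -0.29 and -0.24, or -0.15 and -0.10 relative to all genes, beside -0.15 and -0.10 in the fits reported. With each replicate left out in turn the calls numbered 0 to 9 for RPFs, 0 to 10 for total RNA and 0 to 1 for TE, and the highest count was each time the one without replicate 4. With no count filter total RNA gave 1 call, *Ddx31*, again with no share of all genes beside it. The calls of *Eif4a2*, *Aqr*, *Snrnp200*, *Gemin4* and *Rbm17* were also lost with no replicate block and at a threshold of 0.05, and those of *Gemin4* and *Rbm17* with DESeq2 and of *Rbm17* with the RPF isoform only.

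Each of the medians stayed below 0 under every setting run, lying between -0.29 and -0.10 for RPFs and between -0.24 and -0.03 for total RNA. Of 999 single values of the 27 named members under alternatives, 903 kept their sign and their side of the threshold, 26 passed it, 7 (all *Ddx27* in RPFs) no longer did, and 63 changed sign without being called. Depth limits the scarce members most: *Dhx57*, *Dhx34*, *Ddx55* and *Ddx59* had the fewest RPF counts of the tested members, at 379, 444, 494 and 517 over 8 libraries, and intervals cover the spread between these replicates only.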
